A study of Mus musculus with 8 samples.

Results

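The matrix metalloproteinases (Mmp), the ADAMTS proteases with their ADAMTS-like relatives (Adamts, Adamtsl) and the tissue inhibitors of metalloproteinases (Timp) were examined in epididymal fat of mice labelled as Rev-erb alpha knockouts. Members were the genes whose array row carries exactly 1 gene symbol of these families, each read from its brightest row over the 8 arrays. This gave 48 genes of the 19310 with such a row, namely 22 Mmp genes, 22 Adamts or Adamtsl genes and 4 Timp genes. Mmp15, Adamts2 and Adamtsl3 were not analysed here.

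RNA came from the epididymal white fat, a depot inside the abdomen, of male C57BL/6 mice between 12 and 15 weeks of age. There were 4 samples of genotype Rev-erb alpha KO and 4 of genotype WT, all on a standard diet with 12 h of light and 12 h of darkness a day, and all taken 10 h after the lights came on. Rev-erb alpha, encoded by Nr1d1, is a nuclear receptor of the circadian clock that represses transcription. The labels do not describe the knockout allele or say whether each sample is 1 mouse, so the p-values rest on a spread among samples that may be technical. In whole tissue, fewer cells of a type and less RNA per cell cannot be told apart.

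Metalloproteinases cut the proteins between cells with the help of a zinc ion. Mmp enzymes include collagenases, gelatinases and membrane-anchored forms, and most are made as inactive precursors. Adamts enzymes cut proteoglycans such as aggrecan and versican, trim procollagens or cut von Willebrand factor, while Adamtsl proteins share their ancillary domains but lack the protease domain. Timp proteins sit in the active site of these enzymes and block it, and Timp3 is the member known to inhibit the aggrecan-cutting Adamts4 and Adamts5. In fat, turnover of the matrix around adipocytes accompanies growth of the depot.

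Values are log2 expression as deposited, and a difference is the mean of the KO-labelled arrays minus the mean of the WT arrays. A gene is described as called at a limma adjusted p under 0.05, with adjustment over all 20748 rows with 1 symbol. Rows in the dimmest 33.3% of all rows, with a mean below 5.00 log2, are called dim. The Nr1d1 row did not separate the groups, at 8.80 to 9.56 in the KO-labelled arrays and 9.11 to 9.83 in the WT arrays (−0.26, SE 0.19), and which part of the transcript it reads is not given in the sources used here, so the arrays are called KO-labelled. The clock gene Arntl, a textbook target of the receptor, read 6.65 to 6.95 in the KO-labelled arrays and 4.80 to 5.19 in the WT arrays. The summed level of 8 adipocyte markers (1 higher, 0 lower) overlapped, at 15.206 to 15.265 log2 in the KO-labelled arrays and 15.141 to 15.240 in the WT arrays. Of these markers Lep (0.75) was higher, and Plin1 (−0.20) and Pparg (−0.26) were lower without a call. The others differed by −0.08 to 0.06. Of 6 epididymis markers 5 had dim rows. The sum of 7 fibroblast and progenitor markers (1 higher, 0 lower) overlapped, at 12.66 to 12.77 in the KO-labelled arrays and 12.65 to 12.88 in the WT arrays. Dcn (−0.14, not called) had the brightest row of the 7 and weighs most in this sum. Pi16 (0.40) was higher, while Lum (0.37), Pdgfrb (0.28), Pdgfra (0.14), Dpp4 (0.12) and Cd34 (−0.02) were not called. The marker sums of endothelial and of smooth muscle cells parted the groups. That of 7 endothelial markers (2 higher, 0 lower) was 11.66 to 11.89 in the KO-labelled arrays and 11.44 to 11.65 in the WT arrays, and that of 6 smooth muscle and pericyte markers (2 higher, 1 lower) was 11.39 to 11.95 in the KO-labelled arrays and 10.90 to 11.16 in the WT arrays. The endothelial markers were uneven, with Cldn5 (0.99) and Pecam1 (0.20) higher. Cdh5 (0.19), Emcn (0.18), Vwf (0.11), Tek (0.11) and Kdr (−0.02) were not called. Among the smooth muscle and pericyte markers Acta2 (0.89) and Rgs5 (0.66) were higher and Tagln (−0.29) lower, while Myh11 (−0.21), Cnn1 (−0.02) and Cspg4 (0.13) were not called. The part of these cell types in the results below was not tested.

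Of the 48 members, 5 rose and 1 fell in the KO-labelled fat. The inhibitors Timp1 and Timp3, the proteases Adamts5 and Adamts4, and Adamtsl5 were higher, and the protease Adamts1 was lower. None of the 22 Mmp genes was called, and 4 of them had an unadjusted limma p under 0.05. Called members made up 12.5% of the set, against 7.50% of all genes counted in the same way, 3.89% of them higher and 3.61% lower. The median difference was 0.04 over the members and −0.01 over all genes. At an unadjusted limma p under 0.05 stood 17 members (35.4%), 13 higher and 4 lower. Over all genes it was 21.8%, with 1967 higher and 2249 lower.

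**Figure D1:**
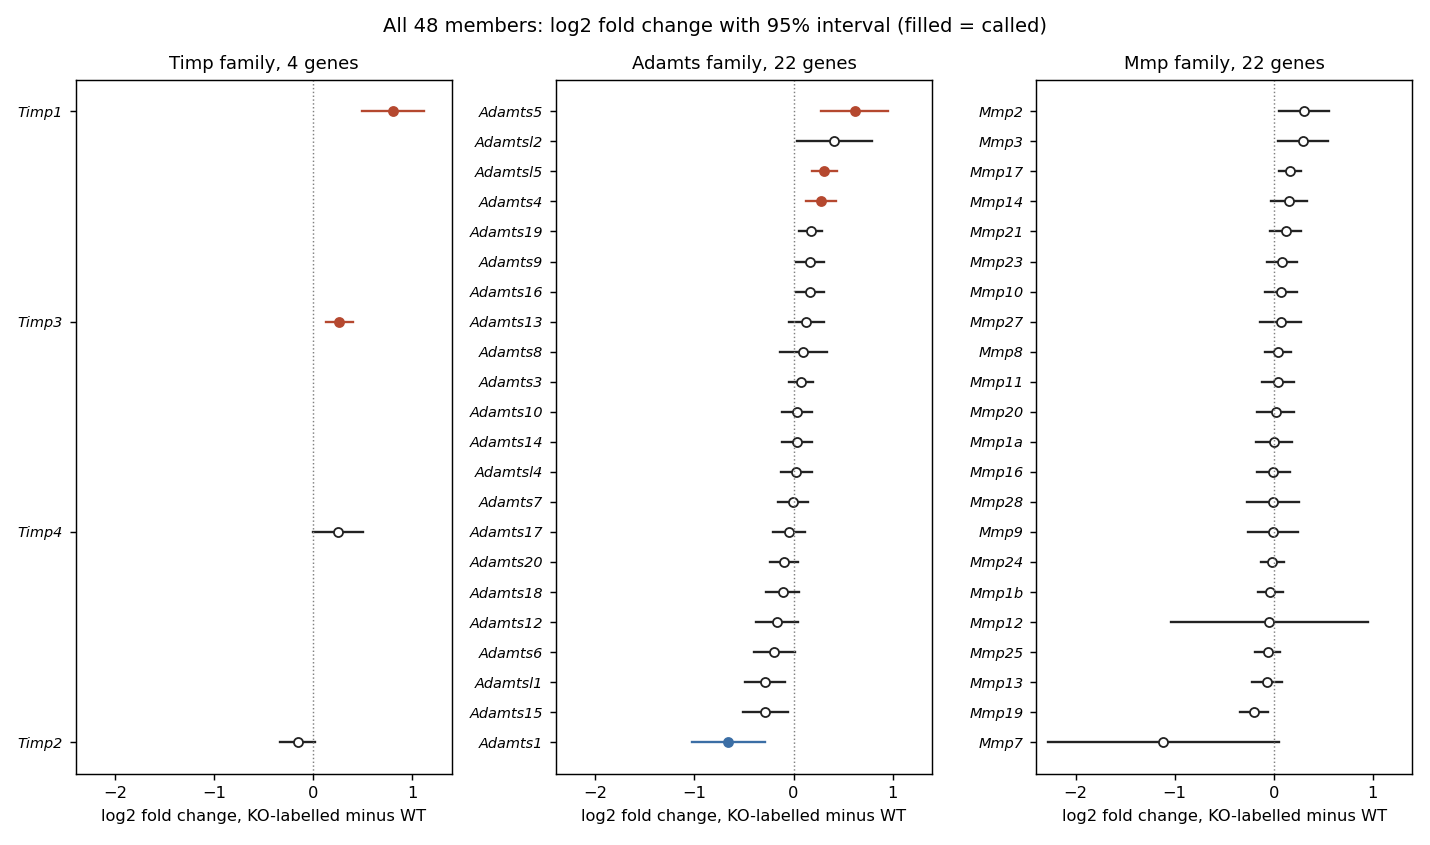
Difference in log2 expression (KO-labelled minus WT) of all 48 members by family, with its 95% interval from limma and 4 arrays per group; filled points are called members. The points of 2 Timp and 3 Adamts or Adamtsl genes are filled above 0 and that of Adamts1 below, while all 22 Mmp points are open and Mmp7 and Mmp12 have the widest intervals.

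Promoters of 4 of the 6 called genes stand in the RefSeq table of GRCm38.p6, which gives 250 bases before to 50 bases after the start of each gene. They are shown because these genes passed the test, and letters were searched on both strands for AGGTCA, the core sequence that Rev-erb and ROR receptors bind, for the longer RORE, for the AP-1 site TGANTCA, for the E-box CACGTG of clock activators and for the GC box GGGCGG. In Adamtsl5 the capitals mark AGGTCA, and in the others they mark the GC box or its reverse complement.
Timp1, chrX:20869916-20870215, plus strand: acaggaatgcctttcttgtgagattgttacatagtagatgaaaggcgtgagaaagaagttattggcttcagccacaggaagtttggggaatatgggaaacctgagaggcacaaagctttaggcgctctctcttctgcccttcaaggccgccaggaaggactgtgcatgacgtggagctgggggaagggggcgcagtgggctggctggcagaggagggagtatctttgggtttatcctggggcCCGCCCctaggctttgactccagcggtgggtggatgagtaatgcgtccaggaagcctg
Timp3, chr10:86300162-86300461, plus strand: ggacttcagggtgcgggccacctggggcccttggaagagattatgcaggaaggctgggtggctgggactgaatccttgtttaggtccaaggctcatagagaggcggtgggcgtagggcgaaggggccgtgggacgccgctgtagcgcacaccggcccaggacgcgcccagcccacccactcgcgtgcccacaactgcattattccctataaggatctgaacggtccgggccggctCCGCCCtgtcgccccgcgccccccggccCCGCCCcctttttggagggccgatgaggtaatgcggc
Adamtsl5, chr10:80348399-80348698, minus strand: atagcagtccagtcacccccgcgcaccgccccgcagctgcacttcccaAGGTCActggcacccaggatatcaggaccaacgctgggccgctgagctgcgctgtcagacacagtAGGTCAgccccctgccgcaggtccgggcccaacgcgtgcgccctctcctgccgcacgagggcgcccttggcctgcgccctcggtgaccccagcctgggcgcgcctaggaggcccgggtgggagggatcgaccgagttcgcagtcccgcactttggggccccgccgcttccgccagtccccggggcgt
Adamts1, chr16:85803064-85803363, minus strand: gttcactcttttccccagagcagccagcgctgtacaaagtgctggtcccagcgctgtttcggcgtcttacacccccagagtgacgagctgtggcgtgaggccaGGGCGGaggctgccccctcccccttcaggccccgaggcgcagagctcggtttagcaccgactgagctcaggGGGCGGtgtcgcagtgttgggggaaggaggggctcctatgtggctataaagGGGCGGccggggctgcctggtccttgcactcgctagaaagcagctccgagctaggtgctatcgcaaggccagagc

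The Adamtsl5 window held AGGTCA at 202 and at 137 bases before the start, and the other 3 windows held none. AGGTCA was present in 16.3% of the 32851 promoters of the table and in 5 of the 36 windows found for 33 member genes. None of these 36 windows held the longer RORE, which 0.384% of all promoters did. The GC box stood in all 4 windows printed here, at 147, 76 and 25 bases before the start of Adamts1, in 19 of the 36 member windows (52.8%) and in 35.7% of all promoters. These are matches of letters, not measured binding.

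Timp1, which inhibits most Mmp enzymes and is induced in many tissues under remodelling, was the most raised of the 48 genes. Its row read 5.61, 5.98, 6.41 and 6.20 log2 in KO-labelled arrays 1 to 4, against 5.12, 5.29, 5.23 and 5.35 in WT arrays 1 to 4. Every KO-labelled array lay above every WT array, and array 1 was the lowest of its group. The difference was 0.80 (SE 0.14, 95% interval 0.49 to 1.12), a 1.75-fold rise with a limma adjusted p of 0.00784. The call held without any single array (0.68 to 0.95, adjusted p 0.00115 to 0.0295), with KO-labelled arrays 1 and 2 alone (0.55) and with arrays 3 and 4 alone (1.06).

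Timp3, a matrix-bound inhibitor, rose by a smaller step. It read 10.42, 10.44, 10.45 and 10.29 log2 in the KO-labelled arrays and 10.06, 10.25, 10.10 and 10.14 in the WT arrays. The groups did not overlap, but the lowest KO-labelled and the highest WT value lay close together. The difference was 0.26 (SE 0.061, 1.20-fold, limma adjusted p = 0.0283). Leaving out KO-labelled array 1, 2 or 3 or WT array 1, 3 or 4 ended the call, with adjusted p between 0.0588 and 0.0754. It was also lost with the replicate block (0.0593), with KO-labelled arrays 1 and 2 alone (0.0710) and with arrays 3 and 4 alone (0.121).

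Timp4, an inhibitor known from heart and fat, and Timp2, which inhibits Mmp2 and also takes part in its activation by Mmp14, were not called. Timp4 read 11.04, 11.42, 10.90 and 11.09 log2 in the KO-labelled arrays against 10.71, 11.05, 10.95 and 10.73 in the WT arrays, a difference of 0.25 (95% interval 0.00057 to 0.50, limma adjusted p = 0.227). Timp2 read 9.80, 9.89, 9.78 and 9.73 in the KO-labelled arrays against 10.04, 10.13, 9.90 and 9.76 in the WT arrays, a difference of −0.16 (−0.33 to 0.02, adjusted p = 0.286). In both the groups overlapped.

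In the GRCm38.p6 gene table Timp1, Timp3 and Timp4 each lie inside a synapsin gene, and promoter strands show Timp1 and Timp4 to run opposite to their host. No host row was called, where 7.50% of all genes were. Syn1, host of Timp1, differed by −0.01 (95% interval −0.13 to 0.10), Syn3, host of Timp3, by −0.15 (−0.28 to −0.0094, limma adjusted p = 0.196) and Syn2, host of Timp4, by 0.09 (−0.08 to 0.25).

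**Figure D2:**
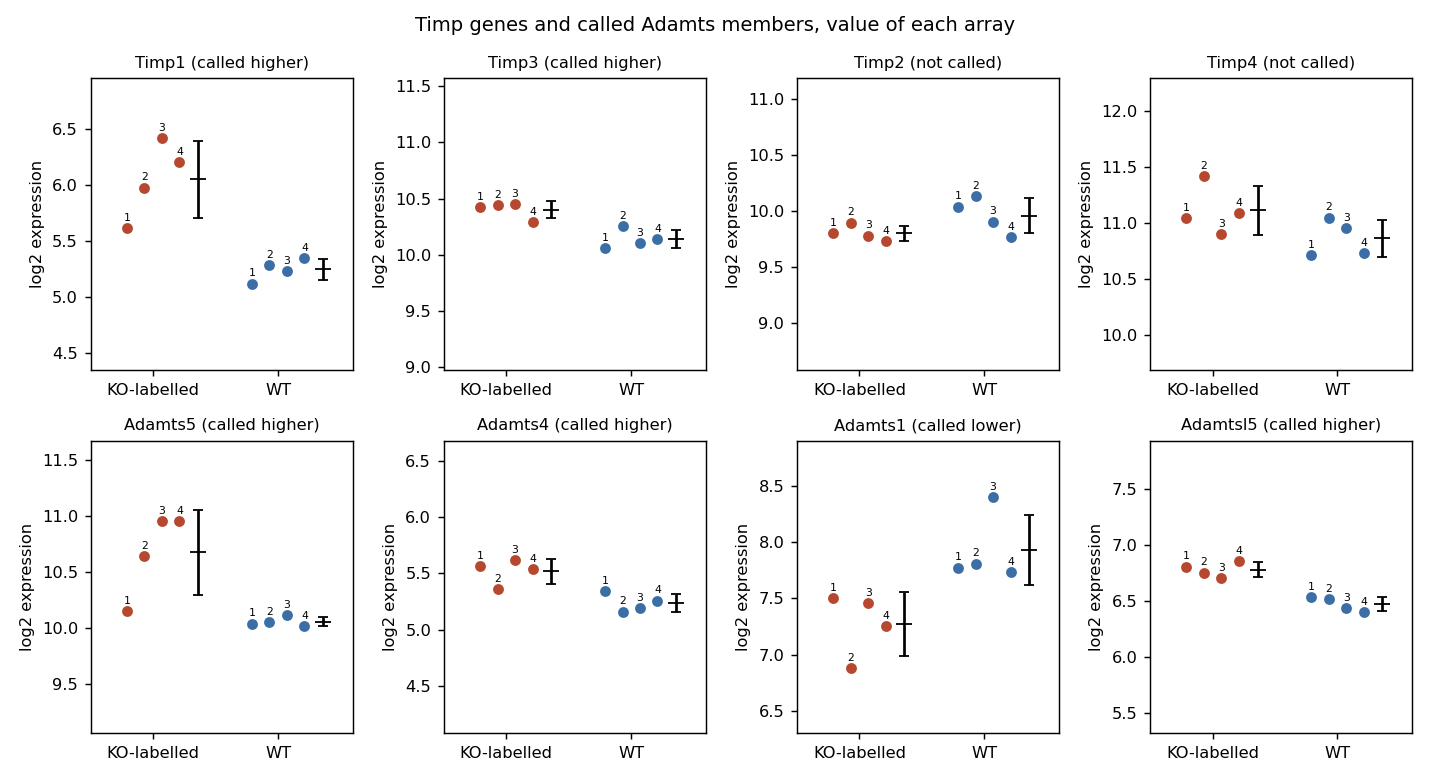
Log2 expression of the 4 Timp genes and the 4 called Adamts and Adamtsl genes in each array, numbered by replicate, with mean and SD of 4 arrays beside the points; every panel spans the same range. The KO-labelled points of Timp1 and Adamts5 spread widely above a tight WT group, those of Adamtsl5 and Timp3 stay close together, and those of Adamts1 lie below WT.

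Adamts5 and Adamts4, the main aggrecan-cutting proteases, were both higher. Adamts5 read 10.15, 10.64, 10.95 and 10.95 log2 in the KO-labelled arrays and 10.04, 10.05, 10.11 and 10.02 in the WT arrays. KO-labelled array 1 was only just above the WT range, while the other 3 were well above it. The SD was 0.38 in the KO-labelled arrays and 0.041 in the WT arrays (n = 4 each). The difference was 0.62 (SE 0.15, 1.53-fold, limma adjusted p = 0.0342). It was 0.34 with KO-labelled arrays 1 and 2 alone (adjusted p = 0.192) and 0.90 with arrays 3 and 4 alone (adjusted p = 0.000231). Without KO-labelled array 1 the call stood (0.79, adjusted p = 0.00111). It was lost without any other single array (adjusted p 0.0613 to 0.0962) and, by a small margin, with quantile normalization (0.0506).

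Adamts4 read 5.57, 5.36, 5.62 and 5.54 log2 in the KO-labelled arrays and 5.34, 5.16, 5.19 and 5.26 in the WT arrays. KO-labelled array 2 and WT array 1 nearly met, without overlap of the groups. The difference was 0.28 (SE 0.069, 1.22-fold, limma adjusted p = 0.0336). The call was lost in 6 of the 8 fits with an array left out, those without KO-labelled array 1, 3 or 4 or WT array 2, 3 or 4 (adjusted p 0.0729 to 0.0901), and with KO-labelled arrays 1 and 2 alone (0.22, adjusted p = 0.212).

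Adamts1 moved the other way. This protease cuts versican and aggrecan and has been studied in mice as an extracellular regulator of adipocyte precursors. It read 7.50, 6.88, 7.46 and 7.25 log2 in the KO-labelled arrays and 7.77, 7.81, 8.40 and 7.74 in the WT arrays. The groups did not overlap, WT array 3 stood above the rest of WT, and KO-labelled array 2 was the lowest. Expression fell by 0.66 log2 (SE 0.17, 95% interval −1.03 to −0.29), to 7.27 ± 0.28 in KO-labelled fat, against 7.93 ± 0.31 in WT fat (SD, n = 4 each; limma adjusted p = 0.0398). The difference was −0.50 without WT array 3. The call held without KO-labelled array 1, and was lost without any other single array (adjusted p 0.0534 to 0.0971), with the trend and robust options (0.0570), with KO-labelled arrays 1 and 2 alone (0.121) and with arrays 3 and 4 alone (0.0909).

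Adamts1 and Adamts5 are neighbours on chromosome 16 with no protein-coding gene between them in the gene table. Their rows thus differed in opposite directions, Adamts5 by 0.62 and Adamts1 by −0.66. Adamts15 and Adamts8, a second neighbouring pair of this class, were not called (−0.29, limma adjusted p = 0.127, and 0.10, adjusted p = 0.655), although Adamts15 was called lower without WT array 4.

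The rest of the proteoglycan-cutting class and the other Adamts classes did not pass. Of 7 proteoglycan-cutting members 2 rose and 1 fell, while of all genes 3.89% rose and 3.61% fell. Adamts9, which also acts in protein export, differed by 0.17 (limma adjusted p = 0.146) and Adamts20 by −0.10. The procollagen N-proteinases Adamts3 and Adamts14 differed by 0.08 and 0.04, the enzymes that cut cartilage oligomeric matrix protein, Adamts12 and Adamts7, by −0.17 and −0.0022, and Adamts13, which cuts von Willebrand factor, by 0.13. The fibrillin-associated Adamts10 and Adamts6 differed by 0.04 and −0.19. Of the remaining 4, Adamts16, Adamts17 and Adamts18 differed by 0.16, −0.05 and −0.11, and Adamts19 came nearest to the threshold. It read 4.50 to 4.62 log2 in the KO-labelled arrays and 4.32 to 4.43 in the WT arrays (0.17, adjusted p = 0.0756), a dim row without overlap of the groups.

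Adamtsl5, a matrix protein without protease activity that binds fibrillin microfibrils, was raised in every array. It read 6.81, 6.75, 6.70 and 6.86 log2 in the KO-labelled arrays and 6.53, 6.51, 6.43 and 6.40 in the WT arrays. Both groups were tight and stood apart. The difference was 0.31 (SE 0.056, 1.24-fold, limma adjusted p = 0.00914), and the call held in all 19 alternative fits (0.28 to 0.34, adjusted p up to 0.0473). Among its relatives, Adamtsl2 differed by 0.41 with a wide interval (0.04 to 0.79, adjusted p = 0.185), Adamtsl4 by 0.03 and Adamtsl1 by −0.29 (adjusted p = 0.0915). Adamtsl1 was called lower with the replicate number as a block and with KO-labelled arrays 3 and 4 alone.

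**Figure D3:**
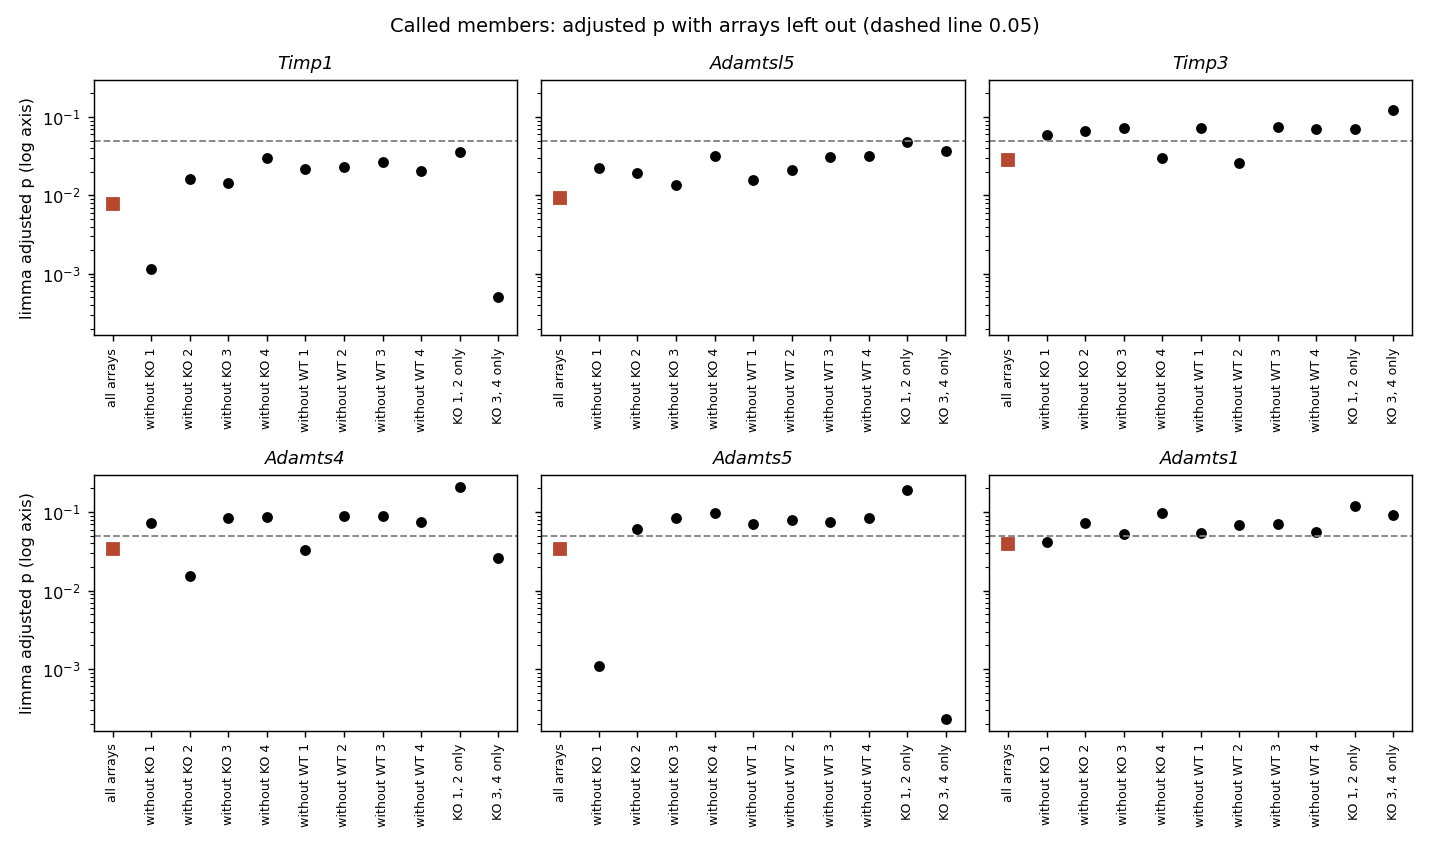
Limma adjusted p, on a log axis, of the 6 called members with all arrays (square) and with arrays left out (points); the dashed line is 0.05. Timp1 and Adamtsl5 stay under the line in every fit shown, whereas Timp3, Adamts4, Adamts5 and Adamts1 cross it in most.

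Several members are read by more than 1 row, and these rows share the same samples. Adamts3 has 16 rows, of which 15 lay above 0 and 1 below, between −0.04 and 0.34 with a median of 0.17. Its brightest row stood at 0.08, and the mean of its rows at 0.16 (limma adjusted p = 0.0767). None of the 16 rows was called, although 7 had an unadjusted p under 0.05 and the lowest adjusted p was 0.0540. Adamts9 has 6 rows, 4 above and 2 below 0 (−0.14 to 0.22), and Adamts17 has 5, 1 above and 4 below (−0.13 to 0.16). Both rows of Adamtsl1 were lower (−0.29 and −0.20) without a call.

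**Figure D4:**
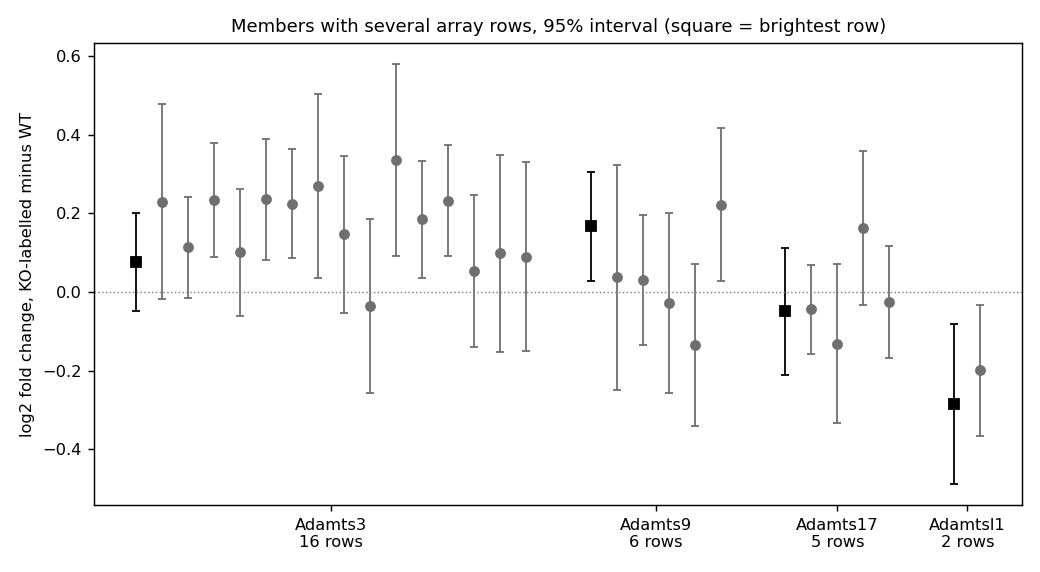
Difference in log2 expression (KO-labelled minus WT) with its 95% interval for every row of the 4 members that have more than 1 row, ordered within a gene from the brightest (square) to the dimmest. The Adamts3 rows lie above 0 in 15 of 16 cases, whereas those of Adamts9 and Adamts17 lie on both sides of 0.

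No Mmp gene passed the test, in either direction. The differences of the 22 lay between −1.11 and 0.31 with a median of 0.01, 12 above and 10 below 0. Of their rows 11 were dim, 50% of the family against 33.6% of all genes. Of the 6483 dim genes among all genes 49 were called. No detection calls were used here, so a flat dim row does not show that a gene did not differ.

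Among the gelatinases, which cut denatured collagen and basement membrane collagen, Mmp2 had the highest difference of the Mmp family. Mmp2 read 8.34, 8.43, 8.72 and 8.28 log2 in the KO-labelled arrays and 8.08, 8.28, 7.89 and 8.29 in the WT arrays. The groups overlapped, with WT array 4 inside the KO-labelled range and WT array 2 just under it. The difference was 0.31 (SE 0.11, 95% interval 0.06 to 0.56, limma adjusted p = 0.138). Mmp9, the gelatinase of neutrophils and macrophages, differed by −0.01 (−0.26 to 0.24).

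Membrane-type members include Mmp14, a collagenase of the cell surface that activates Mmp2 and is needed for fat pad growth in mice. Mmp14 read 7.49, 7.52, 7.40 and 7.27 log2 in the KO-labelled arrays and 7.42, 7.27, 7.28 and 7.09 in the WT arrays, with overlap (0.15, 95% interval −0.02 to 0.33, limma adjusted p = 0.302). Mmp17, anchored by a lipid tail, was the Mmp gene nearest to the threshold. It read 5.04 to 5.16 in the KO-labelled arrays and 4.90 to 4.96 in the WT arrays (0.16, adjusted p = 0.0730), and it was called when dim rows were left out. Its WT values lay under the 5.00 log2 limit for dim rows and its KO-labelled values just above, so the row only just escaped that filter. Mmp24, Mmp25 and Mmp16 differed by at most 0.06 in size.

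The 4 collagenases Mmp1a, Mmp1b, Mmp8 and Mmp13 all had dim rows, and Mmp13 had the brightest row of them (3.83 ± 0.059 in KO-labelled fat and 3.90 ± 0.12 in WT fat, SD, n = 4 each). Of the stromelysins, Mmp11, which is active when secreted, differed by 0.04 and Mmp10 by 0.07. Mmp3 read 4.67, 4.08, 4.35 and 4.57 log2 in the KO-labelled arrays and 4.16, 4.16, 4.17 and 4.00 in the WT arrays (0.30, limma adjusted p = 0.155). KO-labelled array 2 lay within the WT range, and Mmp3 was called higher without that array and with arrays 3 and 4 alone. Mmp19 was 0.20 lower (adjusted p = 0.0931), at 7.49 to 7.71 in the KO-labelled arrays and 7.71 to 7.85 in the WT arrays. Mmp20, Mmp21, Mmp23, Mmp27 and Mmp28 differed by 0.12 at most.

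Mmp7 and Mmp12 varied most between arrays of a group. Mmp12, the elastase of macrophages, read 5.43, 7.29, 6.95 and 7.36 log2 in the KO-labelled arrays and 6.29, 7.26, 6.05 and 7.62 in the WT arrays. High and low arrays occurred in both groups, and the difference was −0.05 with an interval of −1.04 to 0.95. The summed level of 12 macrophage markers (0 higher, 1 lower, the row of Marco dim) was 12.13, 12.35, 12.04 and 12.13 in the KO-labelled arrays and 12.24, 12.19, 11.73 and 11.99 in the WT arrays. Cd14 (−0.38) was the marker called lower, and the others lay above 0 without a call, from 0.03 for C1qa to 0.28 for Itgam. Whether macrophage content bears on Mmp12 was not tested.

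Mmp7, matrilysin, an enzyme of epithelial surfaces, read 4.56, 4.85, 4.98 and 4.69 log2 in the KO-labelled arrays and 7.76, 6.01, 4.64 and 5.13 in the WT arrays. WT arrays 1 and 2 were far above all others, and WT arrays 3 and 4 lay in or near the KO-labelled range. The difference of −1.11 (SE 0.53, 95% interval −2.28 to 0.06, limma adjusted p = 0.253) was the lowest of the 48 members and was not called. The sum of 7 mesothelial markers (1 higher, 0 lower, no dim row) was 11.44, 11.39, 11.26 and 11.22 in the KO-labelled arrays and 11.55, 11.43, 11.37 and 11.31 in the WT arrays, and that of 6 epididymis markers was 6.73 to 6.86 in the KO-labelled arrays and 6.81 to 6.83 in the WT arrays. Of the epididymis markers only Adam7 was highest in WT array 1, and Lcn5, Lcn8, Defb20, Rnase10 and Spag11b were not. All mesothelial markers but Msln were highest in that array, Upk3b by a small margin. Msln, the 1 called, read 8.15 to 8.28 in the KO-labelled arrays and 7.46 to 7.77 in the WT arrays (0.60). The other mesothelial markers were lower without a call, from −0.09 for Upk3b to −0.31 for Krt8. Of these Wt1 came nearest to the threshold (−0.21, limma adjusted p = 0.0568). The keratin gene Krt8 read 6.78 to 7.25 in the KO-labelled arrays, 8.04 in WT array 1 and 6.99 to 7.09 in the other WT arrays. Krt19 read 7.07 to 7.38 in the KO-labelled arrays, 7.76 in WT array 1 and 7.33 to 7.43 in the other WT arrays. The dim epididymis marker Adam7 read 3.23 to 3.45 in the KO-labelled arrays and 3.91, 3.59, 3.39 and 3.27 in WT arrays 1 to 4. The part of these cells in the Mmp7 values was not tested.

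**Figure D5:**
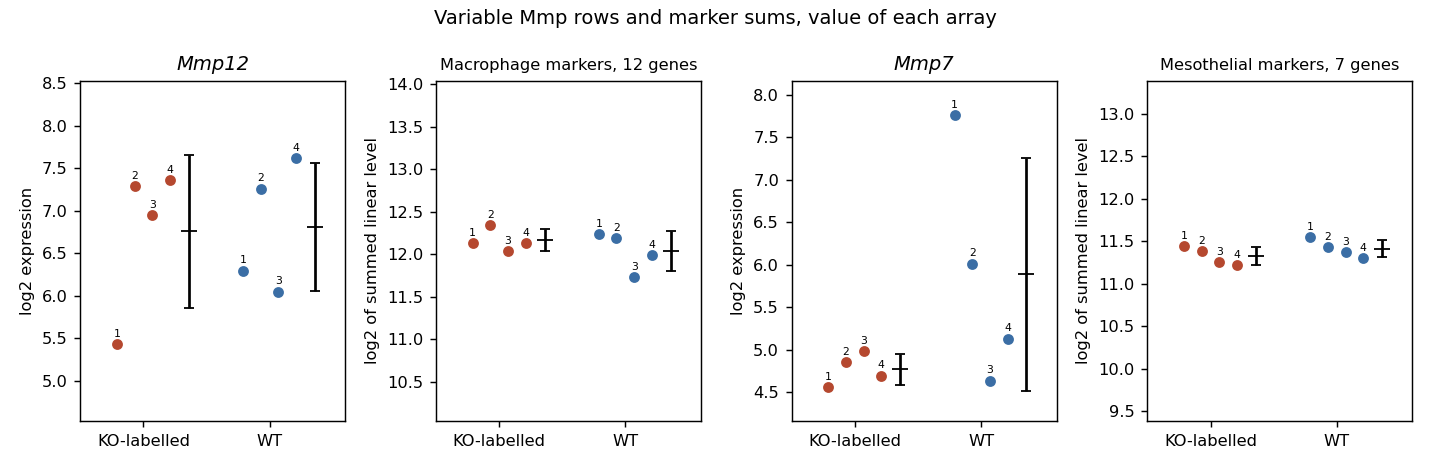
Log2 expression of Mmp12 and Mmp7 beside the log2 of the summed linear level of macrophage and mesothelial markers in each array, numbered by replicate, with mean and SD of 4 arrays; all panels span 4 log2 units. Mmp12 spreads over both groups, Mmp7 is high in WT arrays 1 and 2, and the marker sums stay within a narrow band.

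Of the 22 Mmp genes, 10 follow each other on chromosome 9 without another protein-coding gene between them in the gene table, from Mmp13 through Mmp12, Mmp1b, Mmp3, Mmp1a, Mmp10, Mmp8, Mmp27 and Mmp20 to Mmp7. None of the 10 was called, where 7.50% of all genes were. Of the 10, 8 had dim rows, 6 lay above 0 and 4 below, and the median difference was 0.01. Most of their promoter windows held the same sequence feature. The AP-1 site TGANTCA, bound by Fos and Jun proteins, stood in 8 of the 12 windows of these 10 genes, 1 in each of 8 genes. It stood in 0 of the 24 windows of the 23 other members with a window, and in 7.81% of all promoters in the table. The stretches below show it in capitals with 17 bases on each side, read along the strand of the gene in GRCm38.p6.
Mmp13, chr9:7272462-7272502, plus strand, 35 bases before the start: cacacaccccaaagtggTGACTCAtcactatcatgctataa
Mmp12, chr9:7347313-7347353, plus strand, 44 bases before a listed start: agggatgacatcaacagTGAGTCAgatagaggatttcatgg
Mmp3, chr9:7445759-7445799, plus strand, 46 bases before the start: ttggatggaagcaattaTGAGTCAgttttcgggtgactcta
Mmp10, chr9:7502262-7502302, plus strand, 63 bases before the start: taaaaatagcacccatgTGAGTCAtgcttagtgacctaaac
Mmp7, chr9:7692010-7692050, plus strand, 63 bases before a listed start: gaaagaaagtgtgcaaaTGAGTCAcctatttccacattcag
Mmp1a, chr9:7464051-7464091, plus strand, 73 bases before the start: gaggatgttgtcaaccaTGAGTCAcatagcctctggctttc
Mmp1b, chr9:7388096-7388136, minus strand, 93 bases before the start: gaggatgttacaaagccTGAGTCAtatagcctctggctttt
Mmp20, chr9:7628119-7628159, plus strand, 95 bases before the start: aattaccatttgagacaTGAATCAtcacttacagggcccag

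Partners of these enzymes were read from a list of 48 measured genes for their activation, inhibition, clearance and substrates. In the KO-labelled fat 6 of them rose and 0 fell, 12.5% of the list against 7.50% of all genes, and the median difference was 0.13 against −0.01. At an unadjusted limma p under 0.05 stood 21 higher and 2 lower, 47.9% of the list. Over all 19310 genes it was 1967 higher and 2249 lower, or 21.8%. The list was made with earlier results of these data known, so these shares are not an independent test.

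Of 6 measured substrates, the proteoglycan genes Vcan and Bgn rose. Vcan encodes versican, which Adamts1, Adamts4 and Adamts5 cut, and read 7.66, 7.33, 7.57 and 7.72 log2 in the KO-labelled arrays against 7.03, 7.28, 6.78 and 7.04 in the WT arrays. The groups came close at KO-labelled array 2 and WT array 2. The difference was 0.54 (SE 0.11, limma adjusted p = 0.0158), and the call was lost without KO-labelled array 4 (adjusted p = 0.0532). Bgn, the gene of biglycan, differed by 0.45 (SE 0.081, adjusted p = 0.00866), and both lost the call with KO-labelled arrays 1 and 2 alone (adjusted p = 0.129 and 0.0512). Acan, the gene of aggrecan, was a dim row at 0.10.

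Other proteases and activators were called singly, though in some groups every gene lay above 0. All 5 genes of the tolloid and enhancer group did so (0.18 to 0.70), each with an unadjusted limma p under 0.05. Of these Tll2, a dim row, was just short of a call (0.37, adjusted p = 0.0503). The 5 genes of the cathepsin group also lay above 0 (0.08 to 0.63), 3 of them with such an unadjusted p. The 8 Adam sheddase genes lay 4 above and 4 below 0. The lysosomal protease gene Ctsl, 1 of 5 genes of the cathepsin group to pass, read 10.21 to 10.30 log2 in the KO-labelled arrays and 9.46 to 9.73 in the WT arrays (0.63, SE 0.066, limma adjusted p = 0.000434). Pcolce2, which enhances the trimming of procollagen by Bmp1 and Tll enzymes, was 1.63-fold higher (0.70, SE 0.14, adjusted p = 0.0148), with 7.71 and 7.79 in KO-labelled arrays 1 and 2, 8.24 and 8.23 in arrays 3 and 4, and 7.02 to 7.50 in WT. The Pcolce2 call was lost with the replicate block (adjusted p = 0.0520) and with KO-labelled arrays 1 and 2 alone (0.107). The sheddase gene Adam9 rose by 0.35 (SE 0.058, adjusted p = 0.00594), and its call held in all 19 alternative fits. The convertase gene Pcsk6 rose by 0.35 (SE 0.092, adjusted p = 0.0432), a call lost in 10 of 19 alternatives. None of the 5 measured genes of the plasminogen system was called, where 7.50% of all genes were. Plau, the urokinase gene, was at −0.26 (adjusted p = 0.0989).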

How the data were processed

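Total RNA of 8 samples was measured on a whole-transcript Affymetrix mouse array. The deposited values are log2 expression, 1 per row and sample, and the submitters' processing notes name affy. The background correction, normalization and summarization are not given in the sources used here. The log2 scale was read from the values (2.09 to 13.4). Any scaling of the arrays to each other hides changes common to most genes. The number of arrays limits the precision.

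The platform annotation gave 1 symbol to 20748 of 23346 rows, several to 1183 and none to 1415. In R 4.3.3, limma 3.58.1 compared the 2 groups of 4 on every row with 1 symbol (linear model, moderated variance, two-sided test, Benjamini-Hochberg adjustment), and the procedure was tested on simulated data. Members were counted on the brightest row of a gene, as was the background over 19310 genes. Marker sums are the log2 of summed linear values. Dim rows were set by the mean over all 8 arrays.

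Named were called members, all Timp genes, the brightest row of each class, the genes just short of the threshold in each family and called partner genes. Other genes named with values were chosen after their values were seen. The members, the lists and the split of KO-labelled arrays were chosen with earlier results of these data known. Alternatives were other normalizations, filters, variance models, thresholds and rows, a replicate block and left-out arrays. Sequences and gene order come from RefSeq tables of GRCm38.p6, whose build is not known to be that of the array rows.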

Additional observations from a re-analysis of the deposited data

Results flagged for a closer look

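In 8 of the 96 groups of 4 arrays, 1 for each member and genotype label, a single array stood apart from the other 3 by Dixon's test at its 95% critical value. Chance flags about 1 in 20 groups. Adamts1 read 8.40 in WT array 3, against 7.74 to 7.81 in the other WT arrays. In KO-labelled fat, Adamts14 read 5.83 in array 3 against 5.54 to 5.56, Adamtsl4 read 7.21 in array 1 against 7.42 to 7.43, and Mmp13 read 3.74 in array 1 against 3.86 in each of the others. Among WT arrays, Adamts15 read 5.40 in array 4 against 5.81 to 5.88, and Adamts13 read 4.82 in array 2 against 5.10 to 5.15. Mmp28 read 7.19 in WT array 1 against 7.10 to 7.11, and Mmp3 read 4.00 in WT array 4 against 4.16 to 4.17. The causes were not tested.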

How the results depend on the processing

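The 5 members called higher were 2 to 4 in the 8 fits without 1 array and 2 with KO-labelled arrays 1 and 2 alone, where Timp1 and Adamtsl5 passed; these 2 passed in every alternative. The 1 member called lower, Adamts1, was 0 to 1 without 1 array, 0 with trend and robust options, 0 with KO-labelled arrays 1 and 2 alone, 2 with the replicate block and 3 at an adjusted p under 0.10. Without WT array 4 the lower call was that of Adamts15 and with KO-labelled arrays 3 and 4 alone that of Adamtsl1, not Adamts1. Partner genes called higher, 6, were 10 at an adjusted p under 0.10, 3 with KO-labelled arrays 1 and 2 alone and 4 to 6 without 1 array, and 2 were lower at an adjusted p under 0.10. The sign changed for uncalled genes, with values without 1 array of −0.298 to 0.396 for Mmp12, −0.0068 to 0.0802 for Adamtsl4, −0.111 to 0.0081 for Adamts17 and −0.0143 to 0.0773 for Mmp11. Signs turned for Mmp12 (0.396 without KO-labelled array 1, 0.106 without WT array 2, 0.225 without WT array 4, 0.351 with KO-labelled arrays 3 and 4 alone), Adamtsl4 (−0.0068 without WT array 4, −0.0283 with KO-labelled arrays 1 and 2 alone), Adamts17 (0.0081 without WT array 4) and Mmp11 (−0.0143 without KO-labelled array 3). Same-numbered arrays correlated at −0.0674 to 0.134 in their deviations from the group means. With 4 arrays per group and no reference for such values, this does not settle whether the numbers pair the samples. With the replicate block Timp3 lost its call (limma adjusted p = 0.0593). Fewer arrays lower the power of a fit; beyond that, causes were not tested. Splits of the KO-labelled arrays were added with the data known. Mmp13, a dim row, has no value where dim rows were left out.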
